A study of Mus musculus with 12 samples.

Results

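The messenger RNA of 10 genes of the prostaglandin pathway was followed in mouse dendritic cells, which show antigen to T cells and set how these respond. The genes were chosen by name, for their role and with earlier results of these data known, out of 31054 genes counted in each library: Pla2g4a, which releases the fatty acid substrate, the cyclooxygenases Ptgs1 and Ptgs2, the terminal synthases Ptges, Tbxas1 and Hpgds, the breakdown enzyme Hpgd, and the receptors Ptger2, Ptger4 and Ptgir. All cells were grown from wild-type C57BL6 bone marrow and collected on day 7 as live cells enriched for CD11c, a surface integrin of dendritic cells. Control cells with no treatment (BMDC) and tolerogenic cells made with vitamin D3 and interleukin 10 (TolDC) were each sequenced without and with lipopolysaccharide (LPS), a component of the bacterial cell wall that triggers Toll-like receptor 4. There were 3 libraries in each of the 4 groups. The study concerns the protection that tolerogenic dendritic cells give against acute kidney injury. The sources used here do not give doses, the length of the LPS exposure, the sex and age of the mice or the number of cultures.

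Prostaglandins are lipid signals made in a chain of steps. Cytosolic phospholipase A2 frees arachidonic acid from membranes, a cyclooxygenase turns it into the unstable prostaglandin H2, and a terminal synthase sets which product follows: prostaglandin E2 from Ptges, thromboxane A2 from Tbxas1 or prostaglandin D2 from Hpgds. Prostaglandin E2 acts on dendritic cells through the receptors EP2 (Ptger2) and EP4 (Ptger4), and prostacyclin through IP (Ptgir), and these 3 receptors raise cyclic AMP. In dendritic cells prostaglandin E2 is known both for promoting migration and for restraining or redirecting the cytokines they make.

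The stretches before the annotated starts of 3 enzyme genes are shown because Ptgs1 and Ptgs2 catalyse the same step and moved in opposite directions with LPS, while Ptgs2 and Ptges rose together. The sequences are from RefSeq (GRCm38.p6), 5′ to 3′ on the strand of the gene, 250 bases each, with capitals marking the motifs found. Ptgs2 lies at chr1:150099781-150100030 (plus strand), Ptgs1 at chr2:36230176-36230425 (plus strand) and Ptges at chr2:30903298-30903547 (minus strand).
Ptgs2: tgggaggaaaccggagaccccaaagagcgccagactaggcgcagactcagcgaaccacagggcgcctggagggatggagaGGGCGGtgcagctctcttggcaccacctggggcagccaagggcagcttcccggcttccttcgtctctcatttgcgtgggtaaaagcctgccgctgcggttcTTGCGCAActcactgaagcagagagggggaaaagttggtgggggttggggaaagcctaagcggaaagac
Ptges: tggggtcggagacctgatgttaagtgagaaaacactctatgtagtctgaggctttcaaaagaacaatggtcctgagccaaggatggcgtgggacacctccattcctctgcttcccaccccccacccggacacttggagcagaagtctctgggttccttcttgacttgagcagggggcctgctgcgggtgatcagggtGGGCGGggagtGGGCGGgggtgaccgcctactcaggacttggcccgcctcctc
Ptgs1: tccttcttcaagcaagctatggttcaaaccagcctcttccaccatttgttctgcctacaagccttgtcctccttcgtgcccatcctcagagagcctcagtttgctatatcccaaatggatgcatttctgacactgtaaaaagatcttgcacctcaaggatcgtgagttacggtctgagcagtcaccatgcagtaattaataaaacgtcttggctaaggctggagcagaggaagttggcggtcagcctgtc

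In Ptgs2 the capitals mark a GC box (GGGCGG) at −170 to −165 and a C/EBP site (TTNNGCAA) at −69 to −62, counted from the annotated start. Just after that start, at bases 3 to 32 (chr1:150100033-150100062), a further stretch held the TGACG core of a cAMP response element (here on the reverse strand), which overlaps an E-box (CACGTG).
Ptgs2 start: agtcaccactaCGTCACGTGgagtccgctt
Ptges held GC boxes at −53 to −48 and −42 to −37, and the Ptgs1 window held none of the 7 motifs searched. The RefSeq start used for Ptges lies inside the gene as counted (30889471 to 30929863, minus strand), not at its outer end. Likewise, the 250 bases before the Tbxas1 start (38918736 to 38918985) lie inside that gene as counted (38875404 to 39084585). The search covered both strands of windows running from 250 bases before to 50 bases after the start, and it also took in TATAAA (the TATA box), TGANTCA (AP-1) and the NF-kB site, by name. Among 32851 such windows of all genes, 35.7% held a GC box, 10.8% a C/EBP site, 13.6% a TATA box, 20.8% TGACG, 7.81% the AP-1 motif and 7.15% the E-box. Of the 10 genes, 5 held a GC box, 3 a C/EBP site, 2 a TATA box, 1 each TGACG, the E-box and the AP-1 motif, and none the NF-kB motif, which was in 8.46% of all windows. These matches describe letters in a window and say nothing about what binds there.

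The 12 libraries held 21844405 to 41764975 reads assigned to genes. At these depths 3 counts in a library correspond to 0.0718 to 0.137 counts per 1000000 assigned reads (CPM). Levels below are in CPM, with library totals adjusted by edgeR's TMM factors. Of the 10 genes, 9 passed the filter on low counts that left 13141 genes for testing, and Hpgd did not. The library numbered 1 stood apart from those numbered 2 and 3 in every group, with a chi-square per gene of 5.96 to 15.7 between it and the others, against 1.46 to 2.84 between numbers 2 and 3. It also had the lowest summed level of 10 neutrophil markers in every group. In BMDC this was 645 CPM against 2566 and 2497 CPM, and in BMDC with LPS 340 against 1626 and 1474 CPM. The part of neutrophils in the results was not tested. Across groups, 15.3% of all genes differed between the libraries numbered 1 and the rest (edgeR). Among the prostaglandin genes these were Ptgs2, higher in the libraries numbered 1 by 0.18 ± 0.033 (SE) on the log2 scale (edgeR adjusted p = 0.000265), and Ptgir, higher by 0.13 ± 0.022 (edgeR adjusted p = 0.000120). Of the dendritic cell markers, Itgax (which encodes CD11c) stood at 1357 to 2090.0 CPM in the group means and Zbtb46 at 16.4 to 64.1 CPM, whereas Flt3 was at 0.11 to 1.38 CPM and Cd209a had 12 counts in BMDC, 3 in BMDC with LPS and 0 in both TolDC groups. The labels do not say whether replicates were separate cultures or mice, so p-values speak only for the spread between libraries, which may be technical. In bulk RNA, fewer cells of a type and less RNA per cell cannot be told apart.

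**Figure D1:**
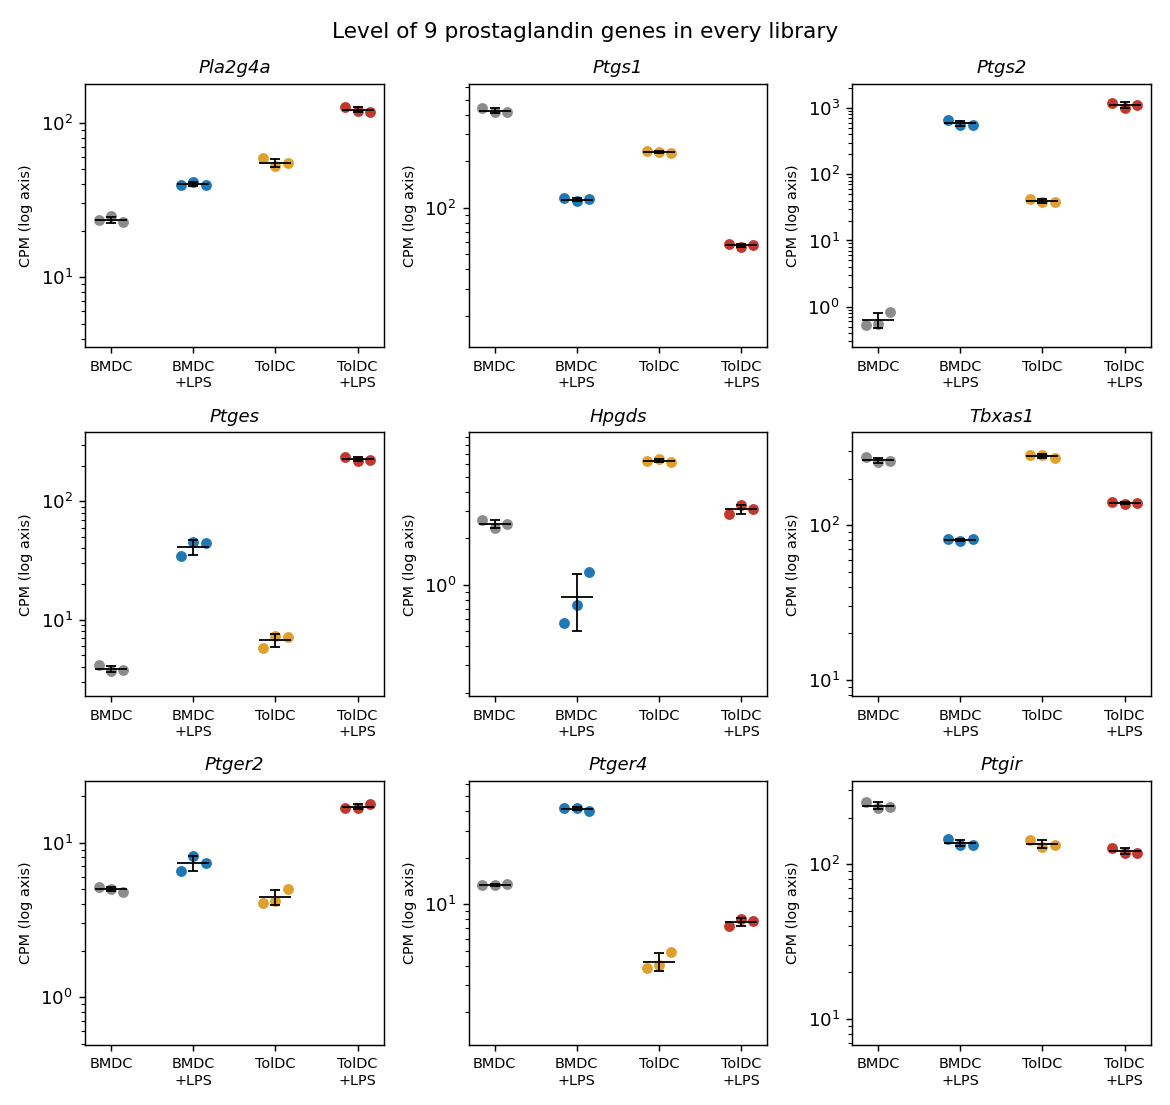
Level of 9 genes in CPM on a log axis in every library, with the mean and SD of each group of 3. Ptgs2 runs from 0.529 CPM in a BMDC library to 1205 CPM in a TolDC library with LPS, while Ptgs1 is highest in BMDC (417 to 441 CPM) and lowest in TolDC with LPS (55.9 to 58.2 CPM).

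With LPS, Ptgs2 and Ptges transcripts rose and Ptgs1 and Tbxas1 transcripts fell in both kinds of cell. In BMDC 5 genes rose (Pla2g4a, Ptgs2, Ptges, Ptger2 and Ptger4) and 4 fell (Ptgs1, Hpgds, Tbxas1 and Ptgir), and the calls in TolDC had the same names and directions. LPS was called to change 73.2% of all 13141 genes in BMDC and 71.3% in TolDC, with 36.7% and 35.4% higher and 36.4% and 35.9% lower. Since the genes were chosen with results known, their median absolute log2 change is a description only. It was 1.64 in BMDC and 1.13 in TolDC, against 0.45 and 0.40 over all genes tested. Tests are edgeR's quasi-likelihood test with p-values adjusted by Benjamini-Hochberg over all genes, and log2 changes are given with their standard error (SE).

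TolDC differed from BMDC in the groups without LPS as well as in those with it. Without LPS, 5 genes were higher in TolDC (Pla2g4a, Ptgs2, Ptges, Hpgds and Tbxas1), 3 were lower (Ptgs1, Ptger4 and Ptgir) and Ptger2 was not called, where 62.4% of all genes were called, 32.0% higher and 30.4% lower. With LPS, 6 were higher (the same 5 and Ptger2) and 3 lower (the same 3), where 67.9% of all genes were called, 34.3% higher and 33.7% lower. The LPS response itself differed between the cell types for 7 of the 9 genes, 5 with a higher value in TolDC and 2 with a lower one, where 44.4% of all genes were called, 20.4% higher and 24.0% lower. These comparisons share libraries and are not independent of each other. Dendritic cell markers also differed between the cell types, with 2 of 9 tested higher in TolDC and 5 lower without LPS, and 1 higher and 7 lower with LPS. Their summed level was 7169 to 7532 CPM in BMDC and 7583 to 7987 CPM in TolDC, and with LPS 10639 to 12198 CPM and 9312 to 11117 CPM. The chemokine receptor Ccr7 was at 49.999 CPM in TolDC against 179.7 CPM in BMDC, and with LPS at 192 against 599.8 CPM. Batf3, a transcription factor of dendritic cells, was at 49.8 against 123 CPM, and with LPS at 64.3 against 167 CPM. In the other direction, the marker H2-Ab1 was at 813 CPM in TolDC against 331 CPM in BMDC, and with LPS at 1279 against 496 CPM. The marker Irf4 was at 511 against 386 CPM without LPS, and at 393 against 452 CPM with LPS. Itgax was not called in either comparison. The part of these markers in the results was not tested.

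**Figure D2:**
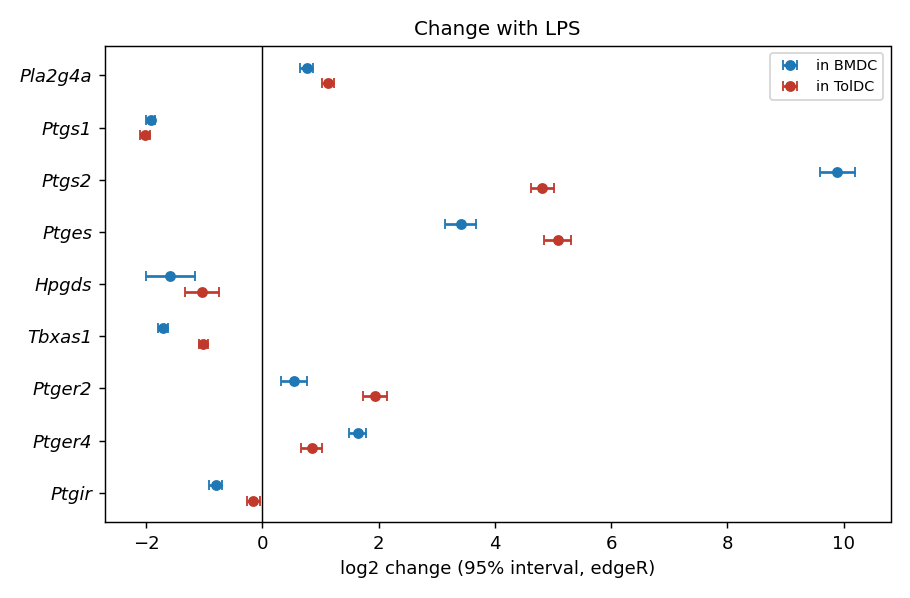
Log2 change with LPS in BMDC and in TolDC, with the 95% interval of the edgeR fit, for 9 genes. Ptgs2 stands furthest to the right in BMDC, at 9.89, and Ptges furthest in TolDC, at 5.08; the intervals of Ptgs1 in the 2 cell types overlap.

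Pla2g4a (ENSMUSG00000056220, chromosome 1, 149829618 to 149961290, minus strand, GRCm38, protein coding) encodes cytosolic phospholipase A2, which supplies arachidonic acid to the cyclooxygenases and to the leukotriene enzymes. Its level was 23.3, 24.8 and 22.8 CPM in the 3 BMDC libraries and 39.5, 41.6 and 39.5 CPM in BMDC with LPS. In TolDC it was 58.8, 52.2 and 54.6 CPM, and in TolDC with LPS 126, 119 and 118 CPM. No 2 groups overlapped, and TolDC without LPS already stood above BMDC with LPS. LPS raised Pla2g4a by 0.76 ± 0.054 in BMDC and by 1.13 ± 0.047 in TolDC on the log2 scale (edgeR adjusted p = 2.19e-10 and 1.06e-13), a difference between the responses of 0.37 ± 0.071 (edgeR adjusted p = 0.000367). TolDC exceeded BMDC by 1.22 ± 0.052 without LPS and by 1.59 ± 0.049 with it (edgeR adjusted p = 3.09e-13 and 1.83e-15).

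The cyclooxygenases divided the 4 groups between them. Ptgs1 (ENSMUSG00000047250, chromosome 2, 36230426 to 36252272, plus strand, protein coding) encodes the form that many cells make at all times. Its level was 441, 417 and 419 CPM in BMDC and 115, 109.8 and 113 CPM in BMDC with LPS. TolDC had 233, 231 and 227 CPM, and TolDC with LPS 58.2, 55.9 and 57.0 CPM. BMDC were highest and TolDC with LPS lowest, with no overlap between any groups.

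Ptgs1 fell with LPS by 1.92 ± 0.038 in BMDC and by 2.01 ± 0.039 in TolDC on the log2 scale (edgeR adjusted p = 1.62e-18 and 1.11e-18). The difference between these responses was −0.096 ± 0.053, with a 95% interval from −0.21 to 0.014 (edgeR adjusted p = 0.151). It was called without the 4 libraries numbered 1 (−0.11, edgeR adjusted p = 0.0437) and with no scaling factors (−0.12, edgeR adjusted p = 0.0424). In TolDC the gene was lower than in BMDC, by −0.89 ± 0.037 without LPS and −0.98 ± 0.038 with LPS (edgeR adjusted p = 1.85e-13 and 6.79e-14).

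Ptgs2 (ENSMUSG00000032487, chromosome 1, 150100031 to 150108227, plus strand, protein coding) encodes the form that inflammatory signals induce. In BMDC without LPS it had 15, 17 and 19 counts, or 0.529, 0.551 and 0.818 CPM. In BMDC with LPS it reached 651, 560.3 and 562 CPM. In TolDC it was at 41.9, 37.5 and 38.6 CPM without LPS and at 1205, 998 and 1121 CPM with it. The order from lowest to highest was thus BMDC, TolDC, BMDC with LPS and TolDC with LPS, and no libraries of neighbouring groups overlapped.

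TolDC without LPS carried 63.1-fold more Ptgs2 than BMDC (log2 difference 5.98 ± 0.15, edgeR adjusted p = 1.11e-12), which placed it at rank 46 of 13141 genes by the size of its difference. With LPS the difference narrowed to 1.87-fold (log2 difference 0.91 ± 0.075, edgeR adjusted p = 1.84e-07). The rise with LPS was 9.89 ± 0.14 in BMDC and 4.82 ± 0.090 in TolDC on the log2 scale (edgeR adjusted p = 8.69e-16 and 1.80e-14). The response in TolDC was therefore smaller in fold by −5.07 ± 0.19 (95% interval −5.48 to −4.67, edgeR adjusted p = 3.02e-10), although its end level was higher. Ptgs2 was highest in library 1 of 3 groups and lowest in library 1 of BMDC. Without the 4 libraries numbered 1 the rises were 9.71 and 4.80 and the difference −4.91.

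Per kilobase of exon, which allows the 2 cyclooxygenases to be compared, the balance reversed with LPS. Ptgs2 made up 0.126% ± 0.0340 (SD, n = 3) of the summed level of both transcripts in BMDC and 12.7% ± 0.573 in TolDC. With LPS its share was 81.6% ± 1.04 in BMDC and 94.3% ± 0.413 in TolDC. The ranges of the 4 groups did not overlap (0.102% to 0.165%, 12.1% to 13.3%, 80.8% to 82.8% and 93.8% to 94.6%), and no test was made of the shares. In CPM per kilobase Ptgs1 stood at 109.5 in BMDC against 0.138 for Ptgs2, and in TolDC with LPS at 14.7 against 242.

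**Figure D3:**
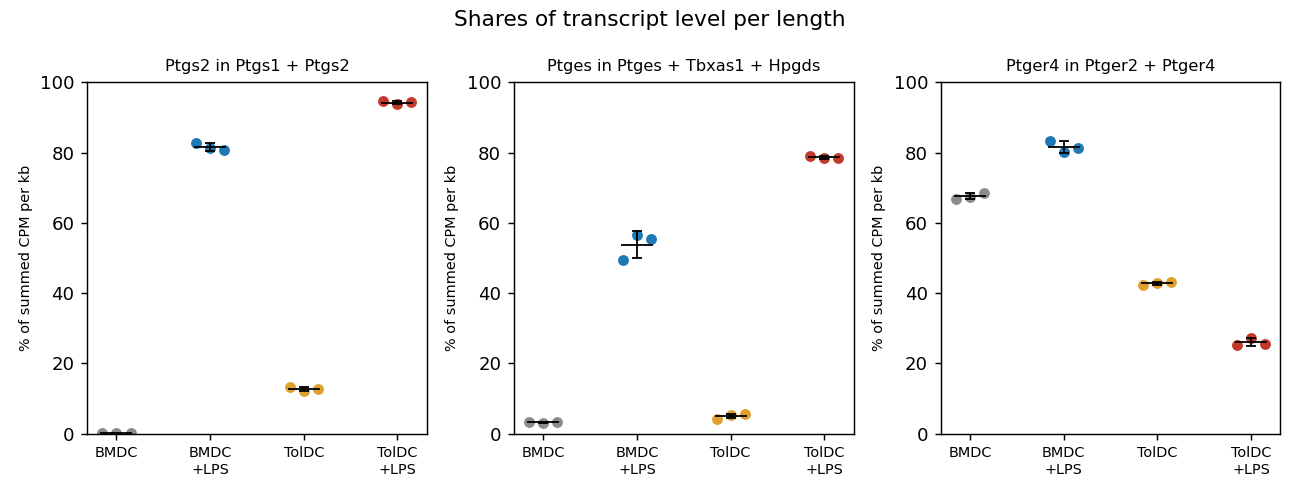
Share of Ptgs2 in the cyclooxygenases, of Ptges in Ptges, Tbxas1 and Hpgds, and of Ptger4 in Ptger2 and Ptger4. Values are percent of the summed CPM per kilobase in every library, with the mean and SD of each group. The Ptgs2 and Ptges shares are highest in TolDC with LPS (94.3% and 78.6%), while the Ptger4 share is lowest there (26.0%).

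Ptges (ENSMUSG00000050737, chromosome 2, 30889471 to 30929863, minus strand, protein coding), the inducible microsomal prostaglandin E synthase, works downstream of Ptgs2. Its level was 4.13, 3.69 and 3.79 CPM in BMDC and 34.6, 45.2 and 44.3 CPM in BMDC with LPS. TolDC were at 5.79, 7.22 and 7.19 CPM, and with LPS 238, 220.9 and 225 CPM. All TolDC libraries with LPS stood far above the rest, and neighbouring groups did not overlap.

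LPS raised Ptges by 3.41 ± 0.12 in BMDC and by 5.08 ± 0.11 in TolDC on the log2 scale (edgeR adjusted p = 2.97e-11 and 1.39e-13). In contrast to Ptgs2, its response was the larger one in TolDC, by 1.67 ± 0.18 (95% interval 1.27 to 2.06, edgeR adjusted p = 1.02e-05). TolDC exceeded BMDC by 1.74-fold without LPS (log2 difference 0.80 ± 0.15, edgeR adjusted p = 0.000589) and by 5.54-fold with LPS (2.47 ± 0.086, edgeR adjusted p = 4.25e-11). So in fold the wider gap in Ptgs2 between the cell types lay in the cells without LPS, and that in Ptges in the cells with LPS. In CPM the gap of both genes was wider with LPS. Ptgs2 was at 39.4 CPM in TolDC against 0.632 in BMDC without LPS, and at 1108 against 591 CPM with LPS.

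Tbxas1 (ENSMUSG00000029925, chromosome 6, 38875404 to 39084585, plus strand, protein coding) encodes thromboxane A synthase, an enzyme of platelets and macrophages. Its level was 275, 256 and 259 CPM in BMDC, 286, 283 and 273 CPM in TolDC, 81.4, 79.2 and 81.0 CPM in BMDC with LPS, and 141, 136 and 139 CPM in TolDC with LPS. The 2 groups without LPS overlapped, and both stood above the groups with LPS, of which TolDC was the higher.

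Genes on the opposite strand, among them Hipk2, overlap Tbxas1, and reads were counted by strand. Tbxas1 fell with LPS by 1.71 ± 0.039 in BMDC and by 1.01 ± 0.038 in TolDC on the log2 scale (edgeR adjusted p = 1.43e-17 and 1.96e-14), a difference between responses of 0.70 ± 0.054 (edgeR adjusted p = 8.13e-09). With LPS it was higher in TolDC by 0.79 ± 0.039 (edgeR adjusted p = 2.18e-12). Without LPS the difference was 0.091 ± 0.037 (edgeR adjusted p = 0.0407). That call was lost in 13 of 22 alternatives, among them leaving out BMDC replicate 2 or 3, TolDC replicate 1 or 2, BMDC with LPS replicate 3 or TolDC with LPS replicate 1 or 3, and the 13 values ran from 0.056 to 0.093.

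Platelets are a known source of Ptgs1 and Tbxas1, and the summed level of 6 markers of platelets and megakaryocytes was 9.91 to 14.4 CPM in BMDC, 12.6 to 21.01 CPM in BMDC with LPS, 14.4 to 26.8 CPM in TolDC and 25.3 to 35.7 CPM in TolDC with LPS. Of the 4 markers tested, 1 was called higher and none lower with LPS in each cell type. Among all genes, 36.7% were called higher and 36.4% lower in BMDC, and 35.4% and 35.9% in TolDC. Markers of macrophages and monocytes, which also express Tbxas1, summed to 838 to 873 CPM in BMDC and 984 to 1407 CPM in BMDC with LPS, with 3 of 8 called higher and 5 lower where 36.7% and 36.4% of all genes were. In TolDC they summed to 867 to 882 CPM and with LPS to 1511 to 1918 CPM. Of the 8, 5 were called higher and 2 lower, where 35.4% and 35.9% of all genes were. The part of these cells in the result was not tested.

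Hpgds (ENSMUSG00000029919, chromosome 6, 65117293 to 65144908, minus strand, protein coding), the haematopoietic prostaglandin D synthase, was the least abundant of the 3 synthases per kilobase. Its level was 2.61, 2.33 and 2.45 CPM in BMDC and 0.563, 0.737 and 1.21 CPM in BMDC with LPS. In TolDC it was 6.30, 6.53 and 6.20 CPM, and with LPS 2.87, 3.26 and 3.10 CPM. TolDC with LPS thus stood above BMDC without it, and no groups overlapped. Hpgds was higher in TolDC by 1.36 ± 0.15 without LPS and by 1.90 ± 0.19 with LPS on the log2 scale (edgeR adjusted p = 2.02e-07 and 6.46e-08).

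With LPS, Hpgds fell by 1.58 ± 0.20 in BMDC and by 1.04 ± 0.14 in TolDC (edgeR adjusted p = 1.01e-06 and 2.07e-06). The difference between these responses, 0.54 ± 0.25 with a 95% interval from 0.014 to 1.07, was not called (edgeR adjusted p = 0.0900). It was 0.89 and called without BMDC with LPS replicate 3 (edgeR adjusted p = 0.00582), 0.29 without BMDC with LPS replicate 1 and 0.28 without the 4 libraries numbered 1, where it was not called. With reads counted without regard to strand it was 0.73 and called (edgeR adjusted p = 0.0245). Over all alternatives the edgeR, DESeq2 or limma-voom adjusted p ran from 0.00582 to 0.455.

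Mast cells and basophils are known for Hpgds, and without LPS their markers were higher in TolDC in the group means. Their 10 markers summed to 31.9 to 117 CPM in BMDC, 77.6 to 277 CPM in TolDC, 222 to 347 CPM in BMDC with LPS and 202 to 424 CPM in TolDC with LPS. Kit, the stem cell factor receptor, was at 22.3 CPM in TolDC against 1.81 CPM in BMDC. Together with Cma1, a chymase (2.58 against 0.365 CPM), it was called higher without LPS, 2 of 9 markers tested where 32.0% of all genes were called higher. With LPS, 1 of 9 (Kit, at 23.7 against 4.38 CPM) was called higher, where 34.3% of all genes were. No marker was called lower in either comparison. Of the markers not called, the protease Prss34 was at 81.6 against 37.6 CPM, the carboxypeptidase Cpa3 at 29.6 against 14.6 CPM and the transcription factor Gata2 at 13.4 against 4.98 CPM without LPS.

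The higher marker sums with LPS lay mostly in Hdc, the histamine-forming enzyme, which rose from 4.69 to 196 CPM in BMDC and from 9.75 to 146 CPM in TolDC. With LPS, the mean of Hdc was thus lower in TolDC than in BMDC, and the marker sums of the cell types overlapped. In BMDC, Kit was the other marker of 9 called higher with LPS, and in TolDC Hdc alone was, with none lower, where 36.7% and 35.4% of all genes were called higher. In TolDC, Prss34 was at 81.6 CPM without and 71.8 CPM with LPS, Cpa3 at 29.6 and 27.7 CPM, and Mcpt8, a basophil protease, at 41.4 and 39.4 CPM. Tpsb2, a mast cell tryptase, had 0 counts in BMDC, 2 in BMDC with LPS, 1 in TolDC and 8 in TolDC with LPS. In each group the library numbered 1 had the lowest marker sum, and it had the highest Hpgds level in BMDC and the lowest in both groups with LPS. The part of mast cells and basophils in the Hpgds results was not tested.

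Set per kilobase against each other, Ptges gained share and Tbxas1 lost it with LPS, a comparison chosen after the values were seen. Tbxas1 held 95.5% ± 0.0872 (SD, n = 3) of their summed level in BMDC and 92.0% ± 0.6996 in TolDC, and 45.6% ± 4.002 and 20.7% ± 0.396 with LPS. Ptges held 3.24% ± 0.0629 in BMDC and 5.11% ± 0.663 in TolDC, and 53.8% ± 3.88 and 78.6% ± 0.453 with LPS. The order was not uniform in BMDC with LPS, where library 1 held 50.2% Tbxas1 and 49.3% Ptges. In CPM, which takes no account of length, Tbxas1 stayed above Ptges in BMDC with LPS (80.5 against 41.4). It was below Ptges in TolDC with LPS (139 against 228). The Hpgds share was at most 2.99%, in TolDC without LPS. These shares leave out the other prostaglandin E synthases listed, Ptges2 and Ptges3. In the group means Ptges3 stood at 29.6 to 36.3 CPM per kilobase and Ptges2 at 2.43 to 4.03. Without LPS both were above Ptges, which was at 0.984 in BMDC and 1.71 in TolDC. With LPS, Ptges was at 10.5 in BMDC and 58.0 in TolDC.

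Hpgd (ENSMUSG00000031613, chromosome 8, 56294585 to 56321043, plus strand, protein coding) encodes 15-hydroxyprostaglandin dehydrogenase, which starts the inactivation of prostaglandin E2. It had 1 count in BMDC, 2 in BMDC with LPS and 0 in either TolDC group. A group with no counts lies below 0.0396 CPM in TolDC and 0.0287 CPM in TolDC with LPS, at a floor of 3 counts over the group that covers counting error only. The gene was not tested, and differences between the groups were not detectable at this depth.

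**Figure D4:**
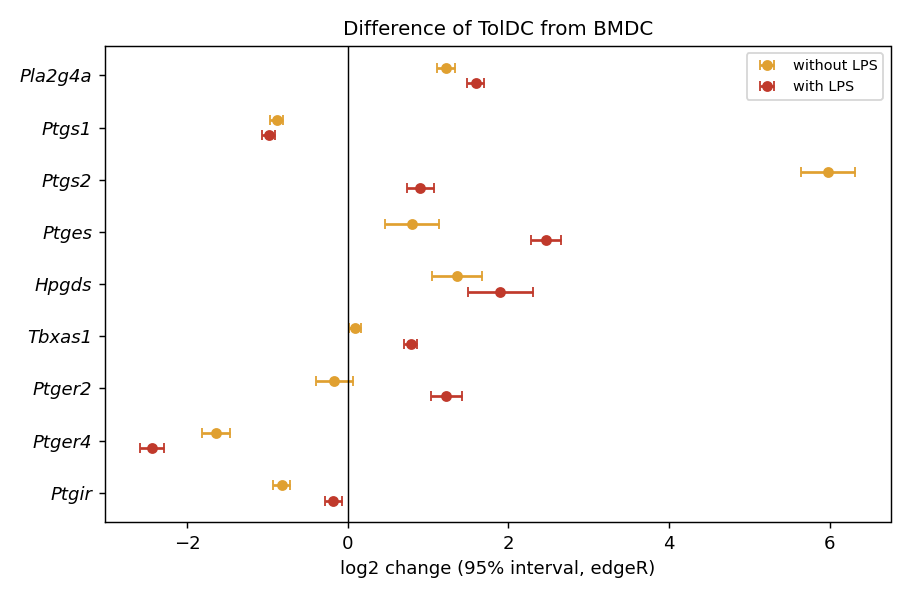
Log2 difference of TolDC from BMDC without and with LPS, with the 95% interval of the edgeR fit, for 9 genes. Ptgs2 lies at 5.98 without LPS and 0.91 with LPS, Ptges at 0.80 and 2.47, and Ptger4 lies to the left of 0 in both (−1.64 and −2.43).

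The 2 prostaglandin E2 receptors followed here, Ptger4 and Ptger2, parted ways between the cell types. Other receptors of prostaglandin E2 were low, with Ptger1 at 0.947 to 1.23 CPM and Ptger3 at 0.533 to 1.18 CPM in the group means. Ptger4 (ENSMUSG00000039942, chromosome 15, 5206661 to 5244187, minus strand, protein coding) encodes EP4. Its level was 13.3, 13.3 and 13.5 CPM in BMDC and 42.0, 42.3 and 40.5 CPM in BMDC with LPS. In TolDC the level was 3.85, 4.04 and 4.90 CPM, and with LPS 7.24, 8.03 and 7.83 CPM. Even with LPS, no TolDC library reached the BMDC libraries without it, and no groups overlapped.

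Ptger4 was lower in TolDC by −1.64 ± 0.083 without LPS and by −2.43 ± 0.070 with LPS on the log2 scale (edgeR adjusted p = 4.08e-12 and 8.05e-16), which is 3.12-fold and 5.40-fold. LPS raised it by 1.64 ± 0.068 in BMDC and by 0.85 ± 0.087 in TolDC (edgeR adjusted p = 7.46e-14 and 5.59e-08). The response was smaller in TolDC by −0.79 ± 0.11 (95% interval −1.03 to −0.56, edgeR adjusted p = 1.29e-05).

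Ptger2 (ENSMUSG00000037759, chromosome 14, 44988195 to 45003820, plus strand, protein coding) encodes EP2. It was at 5.15, 5.02 and 4.82 CPM in BMDC and at 6.51, 8.20 and 7.32 CPM in BMDC with LPS. In TolDC it was at 4.08, 4.20 and 5.04 CPM, and with LPS at 16.8, 16.7 and 17.8 CPM. The groups without LPS overlapped, and TolDC with LPS stood above all others.

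LPS raised Ptger2 by 0.55 ± 0.10 in BMDC and by 1.94 ± 0.096 in TolDC on the log2 scale (edgeR adjusted p = 0.000102 and 1.39e-12), so that here the response was larger in TolDC, by 1.39 ± 0.14 (95% interval 1.09 to 1.69, edgeR adjusted p = 2.68e-07). TolDC exceeded BMDC with LPS by 1.23 ± 0.091 (edgeR adjusted p = 8.88e-10). Without LPS the difference was −0.17 ± 0.11, with a 95% interval from −0.40 to 0.061 (edgeR adjusted p = 0.191). An antisense gene, Gm17173, overlaps Ptger2, and the protein-coding gene Ttc33, on the opposite strand, overlaps Ptger4. For both receptors the counts used were those of the strand of the gene.

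Per kilobase, Ptger4 made up 67.6% ± 0.905 (SD, n = 3) of the summed EP2 and EP4 transcripts in BMDC and 81.6% ± 1.69 in BMDC with LPS. In TolDC its share was 42.8% ± 0.393, and with LPS 26.0% ± 1.16. The share was thus higher with LPS than without in BMDC and lower in TolDC, and the libraries of the 4 groups did not overlap (66.8% to 68.6%, 80.1% to 83.4%, 42.4% to 43.2% and 25.2% to 27.3%).

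Ptgir (ENSMUSG00000043017, chromosome 7, 16906490 to 16910905, plus strand, protein coding) encodes the prostacyclin receptor and was the most abundant of the 3 receptors per kilobase in every group. Its level was 254, 230.2 and 233 CPM in BMDC, 145, 134 and 133 CPM in BMDC with LPS, 144, 128 and 133 CPM in TolDC, and 128, 119 and 118 CPM in TolDC with LPS. BMDC without LPS stood above the rest, and the libraries of BMDC with LPS and of TolDC overlapped.

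Ptgir fell with LPS by 0.80 ± 0.052 in BMDC on the log2 scale (edgeR adjusted p = 9.40e-11). In TolDC the change was −0.16 ± 0.052 (edgeR adjusted p = 0.0122), a call that was lost without TolDC replicate 1 (−0.11), without TolDC with LPS replicate 3 (−0.13) and with the libraries numbered 2 and 3 summed (−0.16). The difference between the responses was 0.64 ± 0.074 (edgeR adjusted p = 1.29e-06). TolDC were lower than BMDC by −0.82 ± 0.052 without LPS and by −0.18 ± 0.052 with LPS (edgeR adjusted p = 1.33e-10 and 0.00571). Ptgir held 96.0% ± 0.189 of the summed level of the 3 receptors per kilobase in BMDC, 96.4% ± 0.516 in TolDC, 84.3% ± 0.845 in BMDC with LPS and 89.1% ± 0.699 in TolDC with LPS.

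Of 17 other prostanoid synthesis genes listed, 14 were tested. LPS raised 2 and lowered 9 in BMDC, where 36.7% of all genes rose and 36.4% fell. Their median log2 change was −0.27, against −0.00030 over all genes. In TolDC LPS raised 5 and lowered 6, near the shares over all genes (35.4% and 35.9%), with a median of −0.14 against −0.0017. Daglb, a diacylglycerol lipase of endocannabinoid synthesis, fell in both, from 100.9 to 12.2 CPM in BMDC (log2 change −3.05 ± 0.059) and from 95.6 to 12.7 CPM in TolDC (−2.91 ± 0.056). Ptgis, the prostacyclin synthase, fell from 7.67 to 1.28 CPM in BMDC (−2.57 ± 0.15) and from 5.41 to 2.36 CPM in TolDC (−1.20 ± 0.13), a difference between responses of 1.38 ± 0.20 (edgeR adjusted p = 2.09e-05). Akr1b3, an aldose reductase with prostaglandin F synthase activity, fell by 1.12 ± 0.053 and by 0.94 ± 0.049 on the log2 scale.

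In the comparison of cell types, 4 of these 14 genes were higher and 4 lower in TolDC without LPS, and 7 higher and 5 lower with LPS. Over all genes 32.0% were higher and 30.4% lower without LPS, and 34.3% and 33.7% with LPS. The median log2 differences were 0.018 and 0.16 against 0.0091 and 0.024 over all genes. Mgll, the lipase that turns an endocannabinoid into arachidonic acid, was lower in TolDC, at 171 against 394 CPM without LPS (log2 difference −1.21 ± 0.056) and 139 against 350.1 CPM with LPS (−1.33 ± 0.056). The lysosomal phospholipase Pla2g15 (−0.998 ± 0.046) and Abhd12 (−0.73 ± 0.047), another lipid hydrolase, were lower without LPS. With LPS the secreted phospholipase Pla2g12a was higher (1.23 ± 0.055), as was the carbonyl reductase Cbr1 (0.95 ± 0.072). Cbr1 (0.79 ± 0.10) had the higher LPS response in TolDC and the phospholipase Pla2g16 (−0.86 ± 0.071) the lower one. The response differed for 8 of the 14 genes, 6 higher and 2 lower, against 44.4% of all genes (20.4% higher and 24.0% lower). Ptgds, another prostaglandin D synthase, had 1 count in each BMDC group and 0 in each TolDC group.

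**Figure D5:**
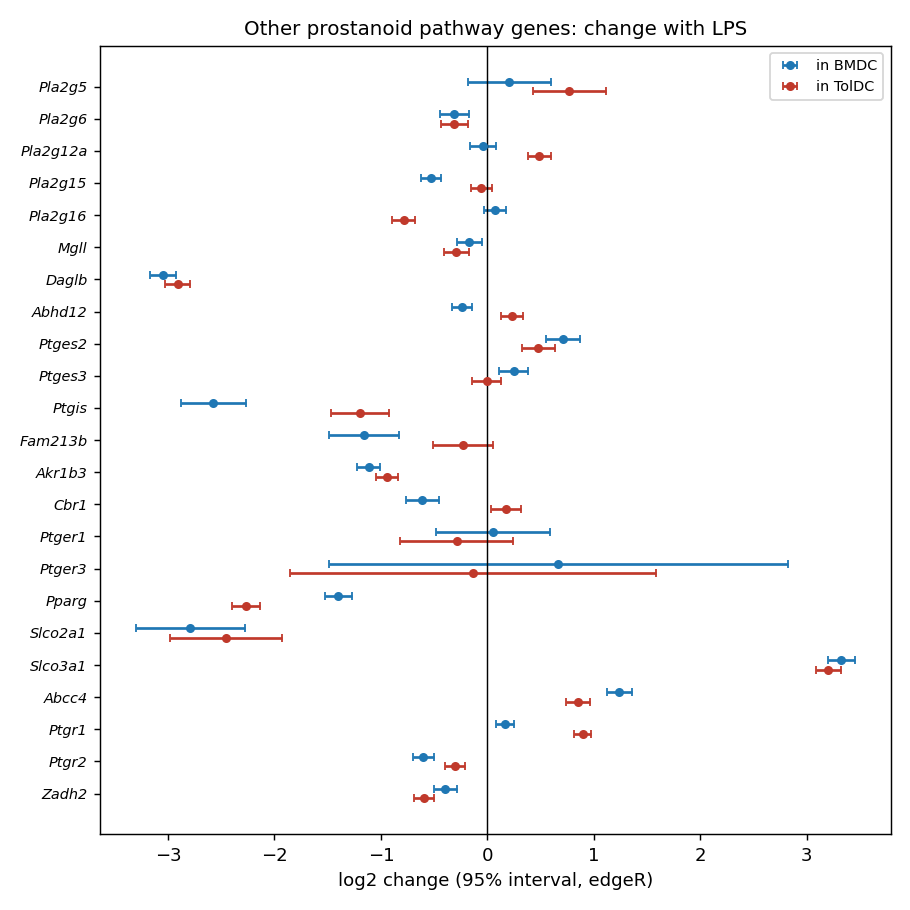
Log2 change with LPS in BMDC and in TolDC, with the 95% interval of the edgeR fit, for the 23 other tested genes of prostanoid synthesis, reception, transport and breakdown. Daglb lies near −3 and Slco3a1 above 3 in both cell types.

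Among 13 other genes of prostanoid reception, transport and breakdown, 9 were tested. LPS raised 3 and lowered 4 in each cell type, near the shares over all genes (36.7% and 36.4% in BMDC, 35.4% and 35.9% in TolDC). The median log2 changes were 0.056 in BMDC and −0.29 in TolDC, against −0.00030 and −0.0017 over all genes. Slco3a1, an organic anion transporter, rose from 6.72 to 67.0 CPM in BMDC (log2 change 3.32 ± 0.059) and from 9.14 to 84.2 CPM in TolDC (3.20 ± 0.056). Abcc4, which exports prostaglandin E2 and cyclic nucleotides, rose by 1.24 ± 0.056 in BMDC, and its response was smaller in TolDC by −0.39 ± 0.079. Pparg, a nuclear receptor that binds prostaglandin derivatives, fell from 44.4 to 16.9 CPM in BMDC (−1.40 ± 0.060) and from 44.3 to 9.21 CPM in TolDC (−2.26 ± 0.063), a difference between responses of −0.86 ± 0.087. Ptgr1, a prostaglandin reductase, rose from 70.9 to 132 CPM in TolDC (0.89 ± 0.038), a larger response than in BMDC by 0.73 ± 0.055.

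For the same 9 genes, TolDC were higher for 4 and lower for 1 without LPS, and higher for 4 and lower for 2 with LPS, where 32.0% and 30.4%, and with LPS 34.3% and 33.7%, of all genes were. The median differences were 0.22 and 0.33 against 0.0091 and 0.024 over all genes. The prostaglandin reductase Zadh2 was at 98.0 against 43.3 CPM without LPS (log2 difference 1.18 ± 0.048) and at 64.8 against 32.9 CPM with LPS (0.98 ± 0.049). Without LPS, Slco3a1 (0.45 ± 0.072) and Abcc4 (0.26 ± 0.059) were also higher in TolDC. With LPS, Ptgr1 was higher (0.95 ± 0.038) and Pparg lower (−0.87 ± 0.068). The difference between the responses was called for 5 of the 9, 2 higher and 3 lower, against 44.4% of all genes. Ptgfr and Ptgdr, the receptors of prostaglandin F and D, had 0 counts in all groups, and Tbxa2r, the thromboxane receptor, had 9 to 13 counts in a group.

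Of 23 listed genes of cyclic AMP signalling, the pathway the 3 receptors feed, 21 were tested. LPS raised 9 and lowered 8 in BMDC and raised 11 and lowered 6 in TolDC, where 73.2% and 71.3% of all genes were called, about evenly in both directions. The median log2 changes were 0.011 and 0.10, against −0.00030 and −0.0017 over all genes. Pde4b, a phosphodiesterase that degrades cyclic AMP, rose from 51.2 to 222 CPM in BMDC (log2 change 2.11 ± 0.041) and from 30.9 to 147 CPM in TolDC (2.25 ± 0.043). Pde7a, another phosphodiesterase, rose by 1.23 ± 0.067 in BMDC, with a smaller response in TolDC by −0.90 ± 0.091. Pde3b fell by 1.10 ± 0.14 in BMDC and by 1.11 ± 0.13 in TolDC. Adcy7, an adenylyl cyclase of blood cells, fell from 252 to 102 CPM in TolDC (−1.30 ± 0.048), further than in BMDC by −0.72 ± 0.067.

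TolDC were higher than BMDC for 10 of these 21 genes and lower for 7 without LPS, and higher for 7 and lower for 6 with LPS, where 62.4% and 67.9% of all genes were called. The largest difference among them was in Adcy6, another adenylyl cyclase, at 3.02 against 14.2 CPM without LPS (log2 difference −2.22 ± 0.13) and 5.12 against 26.5 CPM with LPS (−2.37 ± 0.11). Without LPS, Pde7a was higher in TolDC (0.96 ± 0.067) and Pde4b lower (−0.73 ± 0.044). With LPS, Crtc2, a coactivator of CREB, was lower (−0.67 ± 0.037) and Pde4d higher (0.66 ± 0.075). The responses differed for 9 of the 21, 3 higher and 6 lower, near the share over all genes (44.4%), with Pde4d (0.72 ± 0.11) among the higher ones.

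The genes most like each member over the 12 libraries were found among 9850 others by Pearson's r of log2 CPM, which is given as a description, since the libraries of a group share their treatment. Ptgs2 was closest to the glycolytic enzyme Tpi1 (0.999) and the lactate transporter Slc16a3 (0.998), and Pla2g4a to Loxl2, a lysyl oxidase (0.996), and Ldha, lactate dehydrogenase (0.994). Tpi1 covered a narrower range than Ptgs2, and ran from 239 CPM in BMDC to 618 CPM in TolDC with LPS. Ptges was closest to Snhg6, a small nucleolar RNA host gene (0.996), and Dtx2 (0.996), Tbxas1 to Cd84, a receptor of the SLAM family (0.998), and Ssr3 (0.996), and Ptgs1 to Prkcd, a protein kinase C (0.997), and the lectin Clec4b1 (0.997), whose counts are uncertain because it has near-identical relatives. Hpgds was closest to P2ry12, a purine receptor (0.996), and Cmah (0.989). For the receptors the nearest were Ccdc71l (0.995) and Acot7 (0.995) for Ptger4, Atp6v0b (0.982) and Atf4 (0.981) for Ptger2, and Ctsl (0.992) and Gnpda1 (0.989) for Ptgir.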

How the data were processed

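RNA was purified with the ISOLATE II kit and made into stranded mRNA libraries, per the labels. The authors trimmed reads with cutadapt and counted them with STAR on mm10 (GRCm38), per the submitters' processing notes, which also name edgeR and limma. The sources used here do not give versions, annotation or settings. What the authors deposited is whole, unnormalized counts of reads for each gene. Column 4, with 35.2 to 37.3 times the total of column 3 in every library, was taken as the strand of the genes. Between 79.3% and 80.6% of counted reads were assigned to genes, and the rows that name no gene were left out. Reads matching several places (9.34% to 9.85%) were not counted. Of 31054 identifiers, 31011 were matched to GENCODE M21, which gave symbols, positions and merged exon lengths.

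Genes were filtered with filterByExpr (13141 left), scaled with TMM factors (0.945 to 1.04) and fitted with edgeR 4.0.16 (R 4.3.3), a robust quasi-likelihood model with a mean per group over all 12 libraries, and called at an adjusted p below 0.05. The SE is the absolute log2 change over the square root of F. Likeness used a prior count of 2. List genes named in the text are, per list and comparison, up to 3 called genes of largest change with at least 5 CPM. Hpgd, Ptgds, Ptgfr, Ptgdr, Tbxa2r, Ptger1, Ptger3, Ptges2, Ptges3 and the markers are given for their counts or levels. The markers named with values were chosen after the values were seen. Plaat3, Prxl2b and Ptgr3 were matched under the older symbols Pla2g16, Fam213b and Zadh2. The members and lists were chosen with earlier results of these data known. DESeq2 1.42.0, limma-voom (limma 3.58.1), other scalings, no filter, unstranded counts, a block on the library number, only the groups compared, and fits without single libraries or the 4 numbered 1 were tried as alternatives.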

Additional observations from a re-analysis of the deposited data

Results flagged for a closer look

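The response to LPS differed between TolDC and BMDC for 7 of the 9 genes by the test of the difference itself (edgeR's quasi-likelihood test, adjusted over all genes, of which 44.4% were called). On the log2 scale, TolDC minus BMDC, the difference was −5.07 for Ptgs2 and −0.79 for Ptger4. It was 1.67 for Ptges, 1.39 for Ptger2, 0.70 for Tbxas1, 0.64 for Ptgir and 0.37 for Pla2g4a. All 7 kept their direction and call in each of the 21 alternatives tried for this comparison. In the log2 response, Ptgs2 and Ptges, which act one after the other, thus differed in opposite directions. So did Ptger4 and Ptger2, which bind the same ligand. In level with LPS, however, both Ptgs2 (1.87-fold) and Ptges (5.54-fold) stood higher in TolDC than in BMDC. The value of Ptgs2 rests on 51 counts in the 3 BMDC libraries without LPS.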

How the results depend on the processing

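Each comparison was repeated under 22 alternatives (21 for the difference between responses, which needs all groups). No log2 change of the 9 genes reversed, and the counts of called genes stayed within 1.5 times: 5 higher and 3 or 4 lower with LPS in TolDC, 4 or 5 higher in TolDC without LPS, and 5 or 6 higher and 2 or 3 lower for the difference between responses. Of the 9 genes' 981 alternative values, 961 stayed on their side of the threshold, 16 calls were lost (13 of Tbxas1 in TolDC without LPS and 3 of Ptgir with LPS in TolDC) and 4 were gained (Ptgs1 and Hpgds, difference between responses). Of the 240 alternative values of levels, 15 moved by more than the SD, all with reads counted without regard to strand. The library numbers were not taken as pairs in the main fit. Its SEs and p-values therefore leave out any deviation that libraries of the same number share. Of 18 same-numbered pairs, 1 had a correlation of deviations at or below 0.1 (0.091), and the highest reached 0.466. Of 12 libraries, 6 correlated best with their own number in every other group. The libraries numbered 1 did deviate together (0.33 to 0.47 over 6 pairs), while numbers 2 and 3 were not set apart from each other (0.091 to 0.28 within and 0.104 to 0.202 across them). With the replicate block the counts of called genes were 5 higher and 4 lower with LPS in both cell types, 5 and 3 in TolDC without LPS, 6 and 3 with LPS, and 5 and 2 for the difference. Depth limits Hpgd, and the fold of Ptgs2 in BMDC, whose log2 change ran from 9.71 to 10.09.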
